A study of Rattus norvegicus with 12 samples.

Results

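The genes that code for the proteasome and for its activators, its inhibitor and its assembly chaperones were described across neurons captured from 4 regions of the rat brain. Members were chosen by name: each gene with a probe set whose single symbol begins with Psma, Psmb, Psmc, Psmd, Psme, Psmf or Psmg, and per gene the probe set of highest mean signal. This gave 43 genes of the 10412 genes with such a probe set on the array. Of these, 41 code for a subunit, an activator, the inhibitor or a chaperone. The other 2, Psmc3ip and Psme3ip1, matched by the first letters of the symbol but code for none of these, and are kept apart. Psmc3ip codes for a meiotic recombination factor. Not reached by the rule were Psma8, Psmb6, Psmb11, Psmc6, Psmd12, Psmd14 and Psme3, which have no probe set of 1 symbol in the gene table of the array. Another 6 probe sets were left out because they carry several symbols, among them that of Psmb6 with its copy Psmb6l1, those of Psme3 and one of Psma3.

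The proteasome degrades proteins tagged with ubiquitin. Its core is a barrel of stacked rings: alpha subunits (Psma genes) form the outer rings and the gate, and beta subunits (Psmb genes) form the inner rings, which hold the peptidase sites. Psmb5, Psmb6 and Psmb7 code for the subunits with those sites, and Psmb8, Psmb9 and Psmb10 for the subunits that replace them in the immunoproteasome, a form made by immune cells and under interferon. A regulatory particle caps the core. Its base (the ATPases of the Psmc genes with Psmd1, Psmd2 and Psmd4) unfolds the substrate, and its lid (other Psmd genes) takes part in removing ubiquitin. Psme genes code for activators that open the core without ubiquitin, Psmf1 for an inhibitor, and Psmg genes with Psmd5, Psmd9 and Psmd10 for chaperones of assembly. Neurons depend on the proteasome for protein quality control and for turnover at synapses, and the core can also degrade oxidized proteins.

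The study asked which genes differ between neurons that are vulnerable and neurons that are resistant to oxidative stress, under basal conditions. Neurons were taken by laser capture microdissection from brain sections of untreated Fisher 344/BN F1 rats aged 6 months, from the hippocampal CA1 and CA3 pyramidal layers, the granular layer of the cerebellum (CbG) and the deeper layers of the cerebral cortex (CTX), with 3 arrays per region and 12 in all. CA1 and CbG form the vulnerable group (VUL) and CA3 and CTX the resistant group (RES), so that each comparison of vulnerability is also one between regions, and a region's neurons, the cells caught with them and the amount of RNA per cell cannot be told apart in such samples. Values are MAS5 signals, which measure the brightness of a probe set and do not compare levels between genes.

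The last replicates of CA3 and of CbG went against their labels. Gabra6, which marks granule cells of the cerebellum, reached 2568 on the array labelled CA3 replicate 3 and 15.4 on that labelled CbG replicate 3, against 5.6 and 38.6 on the other CA3 arrays and 3379 and 1283 on the other CbG arrays. Nrgn, a forebrain gene, had 49.2 and 6451 on the same arrays. For the other labels, summed markers of CA1 were 21919 to 26569.6 on the CA1 arrays and 383 to 4990 elsewhere. The 4990 was on the array labelled CbG replicate 3, where CA3 replicates 1 and 2 had 1889 and 1118. Summed markers of deep cortical layers were 14460 to 19139.8 in CTX. That range also held CbG replicate 2 at 18314 and the array labelled CbG replicate 3 at 15611. The comparisons are therefore given as labelled and with the labels of these 2 arrays exchanged, and values per array stand under their deposited label in the order of replicates 1 to 3. The CTX arrays had median signals of 187.0 to 199.3 and the other arrays of 145.5 to 187.5, and the ratio of 3′ to 5′ signal of beta-actin, a sign of RNA quality, was 6.52 on the log2 scale on CbG replicate 2 and 3.85 to 5.35 on the other arrays.

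Differences are on the log2 scale after each array was centred on its median, and a gene was called where the adjusted p of limma's test was under 0.05 and the difference at least 1.5-fold. Of the 43 genes, 40 passed a filter on low signals and were tested among 7535 probe sets. The 3 that did not were Psmb8 and Psmb9, described below, and Psmc3ip. In a test for any difference among the 4 regions as labelled, 1 of 40 members was called, against 3.24% of all probe sets tested. After the exchange 22 of 40 members (55.0%) were called, against 66.6% of all. The region means of a member lay a median of 1.62-fold apart as labelled and 1.64-fold with the labels exchanged, against 1.62-fold and 1.83-fold over all probe sets tested. The members differed between regions at a share near or below that of the array as a whole. In the order of regions CTX had the lowest mean for 29 of 40 members as labelled and 30 of 40 exchanged, against 50.3% and 40.3% of all probe sets, and the highest for 0 of 40. CA3 had the highest mean for 25 and 24 of 40, against 31.9% and 32.2% of all.

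**Figure D1:**
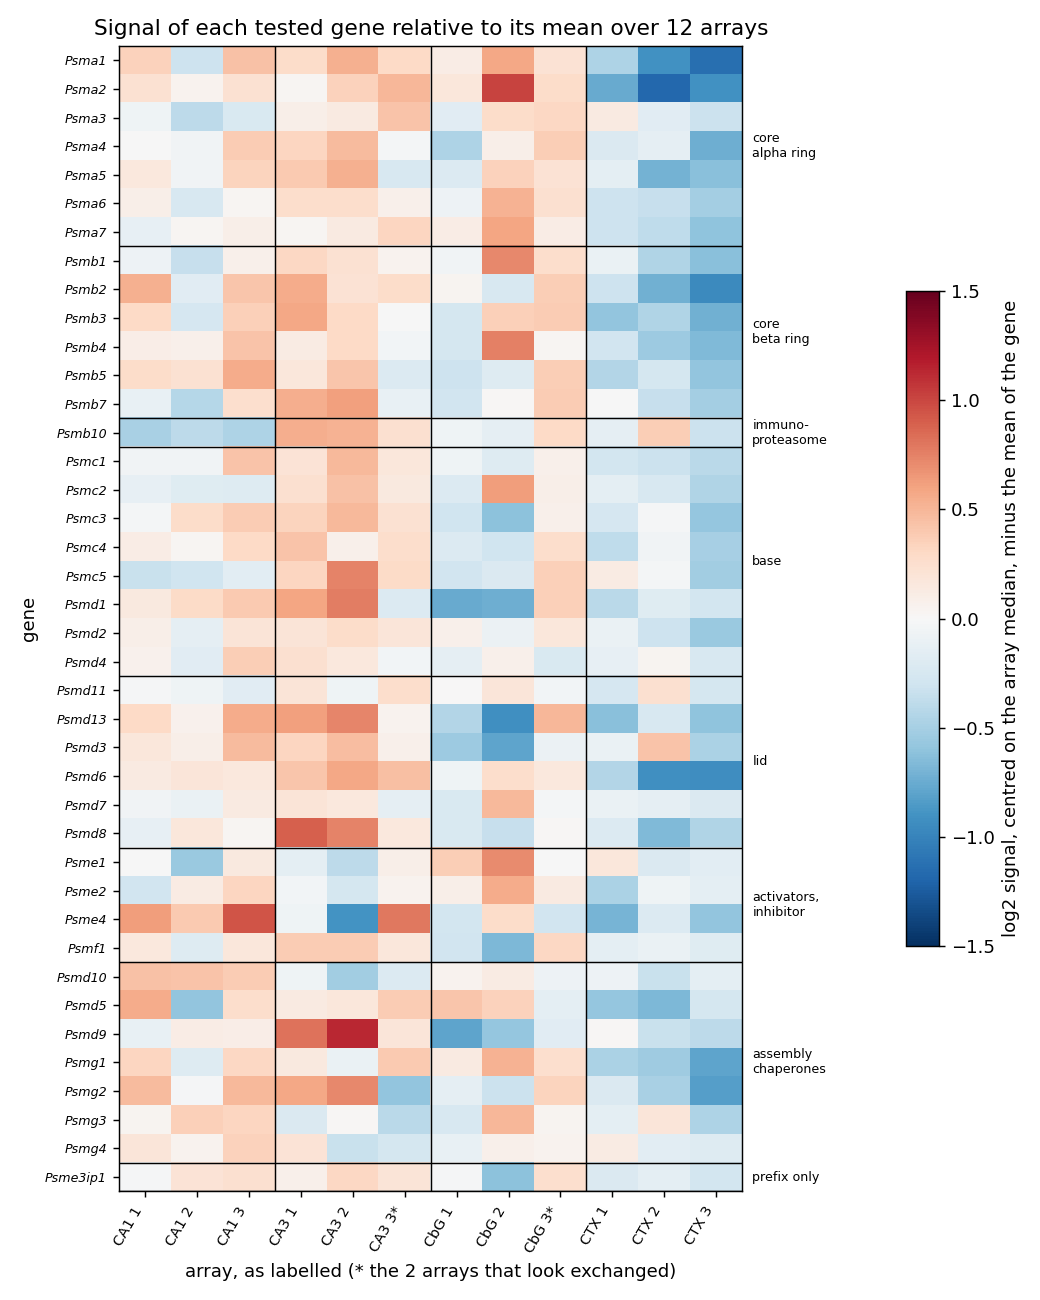
Each row is one of the 40 tested genes and each column an array as labelled, and the colour is the log2 signal centred on the array median minus the mean of the gene over 12 arrays. The 3 CTX columns are mostly blue in the core rows, and the rows of Psmd9, Psmd8 and Psmb10 are red on CA3 replicates 1 and 2.

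CTX was then set against the mean of the other 3 regions, a comparison added after the values were seen. Its difference is the same whichever way the 2 arrays are labelled, and only its error changes. Of the 40 members 0 were above 0, that is, higher in CTX, against 25.5% of all probe sets tested, with a median difference of -0.42 for the members and -0.26 for all probe sets. The core stood lowest, with a median of -0.58 over its 13 tested genes, followed by the lid at -0.39 (6 genes), the base at -0.38 (8 genes), the chaperones at -0.31 (7 genes) and the activators with the inhibitor at -0.24 (4 genes). Of the 40 members 4 were called lower and 0 higher as labelled, against 5.15% of all probe sets called and 3.64% called lower. With the labels exchanged 13 were called lower and 0 higher, against 23.9% called and 17.5% called lower. They were Psma1, Psma2, Psma5, Psmb2, Psmb3 and Psmb4 of the core, Psmd6, Psmd8 and Psmd13 of the lid, Psme4, and the chaperone genes Psmd5, Psmg1 and Psmg2. Of the base genes 0 were called. All 3 CTX arrays lay below all 9 others, with no overlap, for 10 of 40 members, 7 of them in the core, against 9.38% of all probe sets, and above all 9 for 0, against 2.22% of all.

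These sizes depend on the centring. Without it the median of all probe sets was 0.01 in place of -0.26, 12 of 40 members were higher in CTX, the median being -0.15, and CTX was the lowest region for 20 (as labelled) and 17 (exchanged) of 40 members, against 26.0% and 18.8% of all. The calls without centring were Psma2 and Psmd6 as labelled, and Psma1, Psma2, Psmb2 and Psmd6 with the labels exchanged. Without centring the CTX arrays lay wholly below the other 9 for Psma2 and Psmd6, 2 of 40 members, against 2.97% of all, and wholly above for 0, against 4.47% of all. As labelled the 4 calls also depended on single arrays and on the filter: with centring, 0 members were called without CA1 replicate 1, CA1 replicate 3 or any 1 CTX array, 2 without CA3 replicate 1 or 2, 10 without CA3 replicate 3, and 0 with no filter on low signals. With the labels exchanged, Psma1, Psma2, Psmb2 and Psmd6 were called under all 18 alternatives run. Among the 13 core genes CTX was the lowest region for 12 with centring and for 10 without it, under either labelling. The base had CTX lowest for 6 of 8 with centring and 3 of 8 without.

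**Figure D2:**
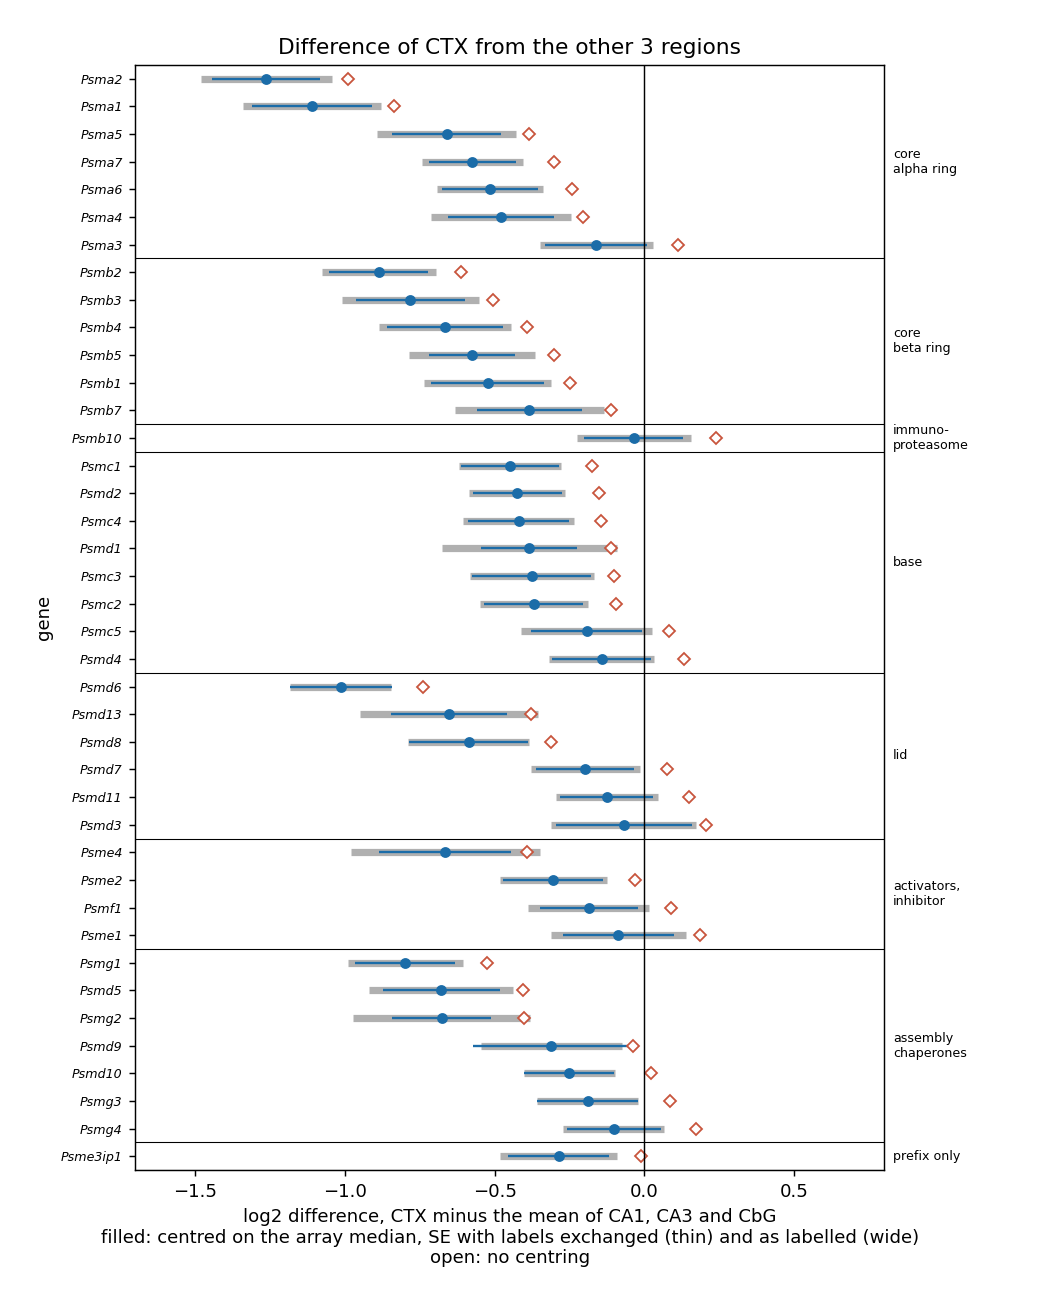
Log2 difference of CTX from the mean of the other 3 regions for each of the 40 tested genes, grouped by role. Filled points are centred values with their standard error, thin with the labels exchanged and wide as labelled, and open points are without centring. All filled points lie below 0, and without centring those of Psma2, Psma1, Psmd6 and Psmb2 stay farthest to the left.

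Signs of other cells moved with CTX, although only the summed oligodendrocyte markers had no overlap with the other arrays. Of the oligodendrocyte markers 6 of 7 were on the array, and their summed signal was 28971 to 44249 on the CTX arrays and 4273 to 20752 on the other 9. All 5 that were tested were higher in CTX in the same comparison, under either labelling, by a median of 1.51. The 10 microglia markers summed to 1364 to 2148 in CTX and 416 to 1424 elsewhere, and 1 of them was tested. It was called higher in CTX only with the labels exchanged. The 7 astrocyte markers summed to 16011 to 28864 in CTX and 8190 to 24465 elsewhere. Of 5 tested, 0 were called in that comparison as labelled and 1, higher in CTX, exchanged. Aqp4 was 1062 to 2717 in CTX. It reached 3729 and 5036 on CbG replicates 1 and 2 and 3724 on the array labelled CA3 replicate 3. Gfap was also highest on those arrays, while Gja1 was highest in CTX. Endothelial markers, 5 of 6 on the array, summed to 1100.2 to 1794 in CTX and 430.2 to 1186 elsewhere. Of 2 tested, 0 were called as labelled and 1, higher in CTX, exchanged. Of all probe sets 5.15% and 23.9% were called in that comparison. The 3′ to 5′ ratio of GAPDH was 2.06 to 2.76 on the log2 scale in CTX and 1.31 to 2.36 elsewhere. No marker of these lists was at 0, but neither was any probe set. The lowest signal of an array was 0.1 to 0.4, so that this says nothing on presence. The part of these differences in the lower signals of CTX was not tested.

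Among the alpha ring genes Psma2 (chr17:55250054-55260441, GRCr8) differed most between regions. Its signals were 896, 809 and 837 in CA1, 774, 894 and 1084 in CA3, 1026, 1635 and 950.4 in CbG and 557, 402 and 514 in CTX. The CTX arrays lay below all others and CbG replicate 2, the array with the high beta-actin ratio, stood far above. The difference of CTX was -1.26 ± 0.22 (SE), with an adjusted p of 0.0226 as labelled and 0.000312 with the labels exchanged. Psma1, another alpha ring gene, had signals of 1153, 747 and 1155 in CA1, 1094, 1212 and 1119 in CA3, 1166, 1439.5 and 1079 in CbG and 815, 571 and 525 in CTX. Its CTX arrays again lay lowest on the centred scale, although CA1 replicate 2, at 747, was below CTX replicate 1, at 815, before centring. The difference of CTX was -1.11 (adjusted p = 0.0349 as labelled and 0.00153 with the labels exchanged). Psma3, the gene of the alpha ring with the smallest range, had 991, 803 and 823 in CA1, 1089, 1044 and 1396 in CA3, 1095, 1321 and 1315 in CbG and 1398, 1086 and 1045 in CTX. Its regions overlapped, and its difference of CTX was -0.16 (adjusted p = 0.619 as labelled and 0.471 with the labels exchanged). The other 4 tested alpha genes, Psma4, Psma5, Psma6 and Psma7, had differences of CTX of -0.48, -0.66, -0.51 and -0.57, of which that of Psma5 was called with the labels exchanged.

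In the beta ring, Psmb2 (chr5:144255058-144287200, GRCr8) had the widest range of regions. Its signals were 1546, 969 and 1331 in CA1, 1552, 1144 and 1297 in CA3, 1302, 951 and 1408 in CbG and 1058, 764 and 692 in CTX. CTX replicates 2 and 3 were the lowest of all 12, while CTX replicate 1 lay above CA1 replicate 2 and CbG replicate 2. The difference of CTX was -0.89 (adjusted p = 0.0382 as labelled and 0.00177 with the labels exchanged). Psmb3 had 1398, 977 and 1364 in CA1, 1684, 1294 and 1142 in CA3, 1129.8, 1536 and 1521 in CbG and 931, 989 and 872 in CTX, with the 3 CTX arrays lowest but for CTX replicate 2, which was above CA1 replicate 2. Its difference was -0.78 (adjusted p = 0.0795 as labelled and 0.00619 with the labels exchanged). Psmb1 had 1553, 1312 and 1612 in CA1, 2015, 1767 and 1706 in CA3, 1869.7, 2837 and 2007 in CbG and 1877, 1415 and 1339 in CTX, and its highest array was again CbG replicate 2. Its difference was -0.52 (adjusted p = 0.159 as labelled and 0.0446 with the labels exchanged). Psmb4 was -0.66 and was called with the labels exchanged.

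Of the catalytic beta genes Psmb5 and Psmb7 were measured. Psmb5, which codes for the subunit with chymotrypsin-like activity, had signals of 4958, 4919 and 5637 in CA1, 4589, 5033 and 3572 in CA3, 3919.6, 3782 and 5432 in CbG and 3718, 4051 and 3443 in CTX. The lowest 6 arrays were those of CTX, CbG replicates 1 and 2 and the array labelled CA3 replicate 3. Its difference of CTX was -0.58 (adjusted p = 0.128 as labelled and 0.00912 with the labels exchanged), just under the 1.5-fold limit. Psmb7, the subunit with trypsin-like activity and the smallest range of the beta ring as labelled, had 2353, 1939 and 2839.5 in CA1, 3707, 3582 and 2369 in CA3, 2478, 2720.3 and 3386 in CbG and 3121, 2375 and 2257 in CTX. CA3 replicates 1 and 2 and the array labelled CbG replicate 3 were its highest, and CTX overlapped CA1. Its difference of CTX was -0.38 (adjusted p = 0.354 as labelled and 0.101 with the labels exchanged). Psmb6 was not analysed, since its probe set is shared with a near copy.

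Promoters are shown for 3 genes whose signals are described here: Psma2 and Psmb2, core genes with lower signals in CTX, and Psme4, the activator gene called between VUL and RES with the labels exchanged. They were read from RefSeq (GRCr8), which held a promoter for 41 of the 43 members (not Psma7 and Psmd6). Each is the 250 bases before the start of the gene, 5′ to 3′ on the gene's strand, and capitals mark 3 motifs searched on both strands: TGACNNNGC (the antioxidant response element, through which Nfe2l1 is known to drive proteasome genes), CCAAT (bound by NF-Y) and GGGCGG (bound by Sp1). The windows lie at chr17:55260442-55260691 on the minus strand, at chr5:144254808-144255057 on the plus strand and at chr14:108706393-108706642 on the plus strand.
Psma2: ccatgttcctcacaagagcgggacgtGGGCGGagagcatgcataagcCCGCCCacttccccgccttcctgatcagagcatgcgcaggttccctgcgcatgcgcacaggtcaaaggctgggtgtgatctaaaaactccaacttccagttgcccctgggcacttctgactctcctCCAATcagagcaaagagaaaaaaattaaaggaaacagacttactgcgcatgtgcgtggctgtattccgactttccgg
Psmb2: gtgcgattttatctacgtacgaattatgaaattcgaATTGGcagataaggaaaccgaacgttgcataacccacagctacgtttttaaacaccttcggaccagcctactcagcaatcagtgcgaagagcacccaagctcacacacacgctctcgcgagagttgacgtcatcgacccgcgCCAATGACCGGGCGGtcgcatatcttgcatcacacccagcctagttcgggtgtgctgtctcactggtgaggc
Psme4: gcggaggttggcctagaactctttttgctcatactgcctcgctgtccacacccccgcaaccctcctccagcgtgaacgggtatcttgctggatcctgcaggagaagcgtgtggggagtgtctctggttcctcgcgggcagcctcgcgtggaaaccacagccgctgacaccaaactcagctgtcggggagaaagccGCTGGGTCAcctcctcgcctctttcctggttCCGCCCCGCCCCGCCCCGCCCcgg
In Psma2 the capitals are CCAAT once and GGGCGG or its complement at 2 places. In Psmb2 they are CCAAT read on the other strand, and a run in which CCAAT, TGACNNNGC and GGGCGG overlap. In Psme4 they are TGACNNNGC read on the other strand and 4 copies of the complement of GGGCGG, which overlap. TGACNNNGC was found in 6 of the 41 promoters (14.6%), against 10.1% of the 33469 promoters in the table, and those were Psma3, Psmb2, Psmb5, Psmd1, Psmd9 and Psme4. CCAAT was in 21 of 41 (51.2%), against 34.0%, and in 9 of the 12 core promoters. GGGCGG was in 28 of 41 (68.3%), against 30.5%, and in 10 of the 12. Matches are letters in a window. Of the genes called lower in CTX with the labels exchanged, Psmb2 and Psme4 have TGACNNNGC. Psma1, Psma2, Psma5, Psmb3, Psmb4, Psmd5, Psmd8, Psmd13, Psmg1 and Psmg2 do not, and Psmd6 had no promoter to search. Psma3, Psmb5, Psmd1 and Psmd9, which were not called there, have it. The part of the motif in these signals was not tested. Nfe2l1 itself had signals of 283, 247 and 285 in CA1, 414, 361 and 282 in CA3, 294, 278 and 427 in CbG and 414, 406 and 452 in CTX. Its CTX arrays overlapped those labelled CA3 and CbG and lay above CA1. With the labels exchanged the CbG arrays, at 278 to 294, all lay below CTX, and CA3 still overlapped it.

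**Figure D3:**
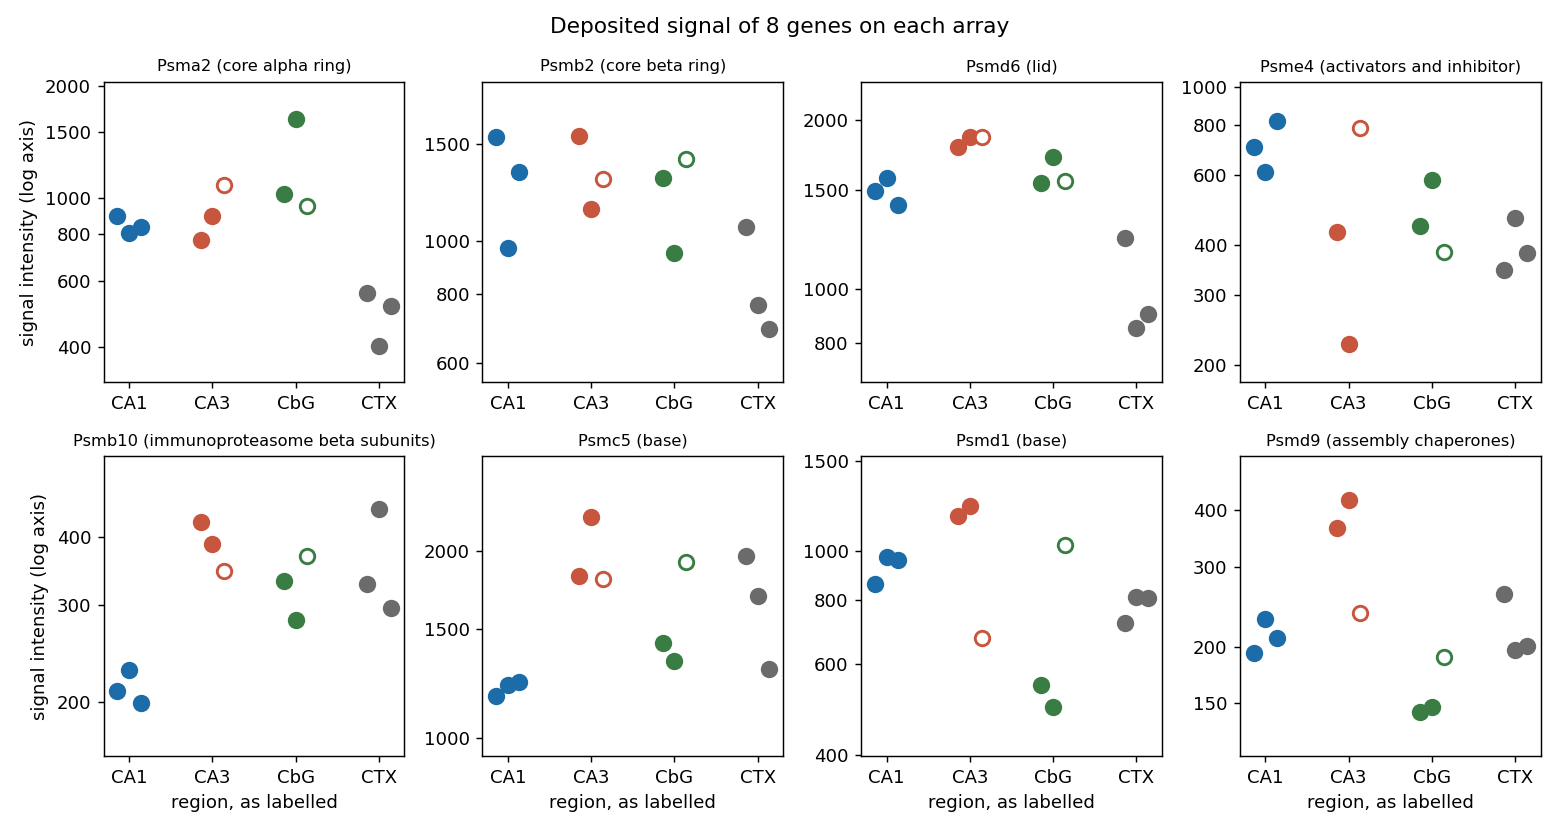
Deposited signal on a log axis for 8 genes, with a point per array by labelled region and open points for the 2 doubtful arrays. Psma2 and Psmd6 have all 3 CTX points below the rest, Psmb10 has all 3 CA1 points below the rest, and in Psmd1 each open point lies nearer to the other region of the pair.

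The 8 tested base genes were all lower in CTX with centring, as were all other tested members, and the median over all probe sets was -0.26. Without centring Psmc5 (0.08) and Psmd4 (0.13) were higher in CTX. As labelled 0 of the 8 were higher in CA1 than in CA3, against 47.7% of all probe sets. With the labels exchanged it was 1 of 8, against 50.4%. In any comparison as labelled 0 of the 8 were called, where 0.0% to 6.37% of all probe sets were called. The largest range was that of Psmd1, which codes for a scaffold subunit that binds ubiquitin receptors. Its signals were 862, 971 and 958 in CA1, 1168, 1223 and 677 in CA3, 547, 497 and 1025 in CbG and 723, 814 and 810 in CTX. The array labelled CA3 replicate 3 was nearer the low CbG arrays and that labelled CbG replicate 3 nearer the high CA3 arrays. Once exchanged, all 3 CbG values, 497 to 677, were below all others and Psmd1 was called lower in CbG than in the mean of the forebrain regions, with a log2 difference of -0.75 ± 0.16 (SE, adjusted p = 0.00159). As labelled the same difference was -0.50 ± 0.29 (adjusted p = 0.587). Psmc5, an ATPase gene, had 1169.5, 1219 and 1232 in CA1, 1823, 2269.8 and 1802 in CA3, 1424, 1333 and 1922 in CbG and 1959.5, 1694 and 1294 in CTX. Its CA1 signals were close together and below all others before centring, and CA1 was lower than CA3 with a log2 difference of -0.74 ± 0.23 with the labels exchanged (adjusted p = 0.0472), against -0.72 ± 0.27 as labelled (adjusted p = 0.322). Psmd4, a ubiquitin receptor and the member of the base with the smallest range, had 768, 668 and 889.5 in CA1, 858, 755 and 714 in CA3, 792, 818 and 642 in CbG and 831, 892 and 787 in CTX, with all regions overlapping.

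The lid held the member called as labelled among the 4 regions. Psmd6 (chr15:13532675-13542682, GRCr8) had signals of 1492, 1577 and 1412 in CA1, 1792, 1867 and 1863 in CA3, 1544, 1717 and 1556 in CbG and 1232, 852 and 900.1 in CTX. All CTX arrays were below all others, and the arrays labelled CA3 were above all others, that labelled CA3 replicate 3 among them. The region means lay 2.37-fold apart (adjusted p = 0.0451). That call was lost without any 1 array other than the 2 doubtful ones (adjusted p of up to 0.239), without centring and without the filter. CTX differed from the rest by -1.01 ± 0.17 (adjusted p = 0.0206 as labelled and 0.000916 exchanged). Psmd13 had 823, 716 and 923 in CA1, 1015, 1027 and 697 in CA3, 587, 373 and 967 in CbG and 533, 672 and 556 in CTX, where CbG replicates 1 and 2 and CTX were low and the array labelled CA3 replicate 3 lay between CA1 and CTX. Its difference of CTX was -0.65 (adjusted p = 0.201 as labelled and 0.0199 with the labels exchanged). Psmd8 had 274, 342 and 284 in CA1, 549, 460.1 and 335 in CA3, 301, 248 and 310 in CbG and 317, 223 and 275 in CTX, with CA3 replicates 1 and 2 above all others, and a difference of CTX of -0.59 (adjusted p = 0.114 as labelled and 0.0345 with the labels exchanged). Psmd11, with 2512, 2471 and 2114 in CA1, 2891, 2245 and 3048 in CA3, 3015, 3047 and 2529.5 in CbG and 2634, 3541 and 2659 in CTX, had the smallest range of the lid and overlapped in all regions. A further probe set of the same gene ran from 1456 to 1973, with 1456 to 1525 in CA1 and a different order of the other regions.

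**Figure D4:**
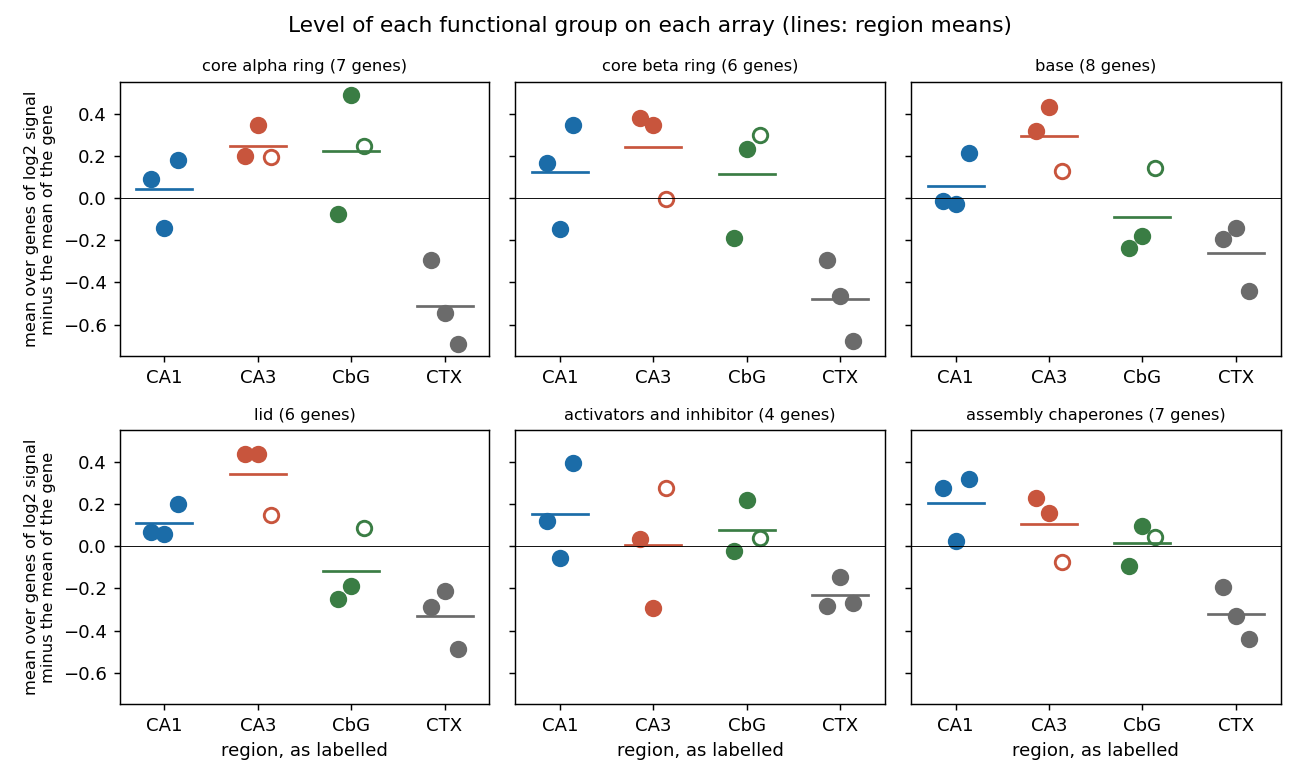
Mean over the tested genes of a group of the log2 signal centred on the array median minus the gene's mean, for each array by labelled region, with open points for the 2 doubtful arrays and lines for region means of 3 arrays. CTX lies below the other regions in both core rings, at -0.69 to -0.30 in the alpha ring, and CbG replicates 1 and 2 lie above all CTX arrays in both core rings and among them in the base.

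The levels by group are set side by side, and the differences between groups were not tested. In the alpha ring the mean deviation from the gene means was -0.51 ± 0.20 (SD, n = 3) in CTX and 0.22 ± 0.28 in CbG as labelled. In the base it was -0.26 ± 0.16 in CTX and -0.09 ± 0.21 in CbG, and in the lid -0.33 ± 0.14 and -0.12 ± 0.18. CbG replicates 1 and 2, whose labels are not in doubt, had -0.24 and -0.18 in the base and -0.25 and -0.19 in the lid, where the CTX arrays had -0.44 to -0.14 and -0.49 to -0.21. Of the core genes 13 of 13 were higher in CbG than in CTX under either labelling, against 64.2% of all probe sets as labelled and 62.4% exchanged. The core medians were 0.67 as labelled and 0.62 exchanged. They were 0.16 and 0.15 for the base and 0.21 and 0.22 for the lid, against 0.16 and 0.18 over all probe sets. Without centring the core medians were 0.50 and 0.43, the base medians -0.01 and -0.03, and those of all probe sets -0.02 and -0.0038. The core genes higher in CbG were then 13 of 13 as labelled and 12 of 13 exchanged, against 48.3% and 49.7% of all probe sets.

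Of the immunoproteasome genes Psmb8 and Psmb9 had low signals. Psmb8 had signals of 62.1, 20.2 and 7.9 in CA1, 56.6, 87.3 and 96.4 in CA3, 86.3, 65.7 and 80.4 in CbG and 102, 49.2 and 26.4 in CTX, and Psmb9 of 10.2, 54.6 and 5.3 in CA1, 7.2, 3.4 and 3.2 in CA3, 40.9, 7.8 and 5.5 in CbG and 7.9, 29.4 and 40 in CTX. Each was below the array median on all 12 arrays, so that no difference between regions was tested. Psmb10, the remaining immunoproteasome gene, passed the median on all 12 arrays and had 209, 229 and 199 in CA1, 426, 388 and 346 in CA3, 333, 282 and 369.7 in CbG and 328, 449 and 296 in CTX. All CA1 arrays were below all others. It was lower in CA1 than in CA3 with the labels exchanged, the log2 difference being -0.90 ± 0.20 (adjusted p = 0.00914), and with the labels as deposited the difference was -0.88 ± 0.23 (adjusted p = 0.137). With the labels exchanged, summed oligodendrocyte markers were 4273 to 6776 in CA1, 10065 to 13404 in CA3 and 28971 to 44249 in CTX. Summed microglia markers were 416 to 811 in CA1 and 592 to 961 in CA3. The part of other cells in the signals of Psmb10 was not tested. Of the 10 genes listed as partners of the immunoproteasome in antigen presentation 7 were on the array, 2 were tested and 0 were called in any comparison.

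Among the activators Psme4 (chr14:108706643-108810330, GRCr8), which codes for the PA200 activator known from DNA repair and spermatogenesis, had the largest range. Its signals were 705, 611 and 821 in CA1, 432, 226 and 789 in CA3, 448, 582 and 384 in CbG and 347, 468 and 381 in CTX. The array labelled CA3 replicate 3 was as high as CA1 and far above the other CA3 arrays. At 789 it was also above CbG replicates 1 and 2, at 448 and 582. With the labels exchanged Psme4 was higher in VUL than in RES by 0.92 ± 0.19 (adjusted p = 0.00287), higher in CA1 than in CA3 by 1.07 ± 0.27 (adjusted p = 0.0177) and higher in CbG than in CTX by 0.76 ± 0.27 (adjusted p = 0.04). As labelled these differences were 0.56, 0.71 and 0.40, with adjusted p of 0.559, 0.538 and 0.65. The result belongs to 1 probe set: a further probe set of Psme4 that passed the filter had its highest signals, 629 and 602, on CbG replicates 1 and 2 and its lowest mean in CA1. Psme2, which codes for a subunit of the PA28 activator induced by interferon, had 513, 694 and 729 in CA1, 605, 477 and 649.9 in CA3, 787, 972 and 699 in CbG and 554, 707 and 711 in CTX, with overlap in all regions.

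Of the chaperone genes Psmd9 had the largest range as labelled. Its signals were 194, 229.7 and 209 in CA1, 365, 421 and 238 in CA3, 143, 147 and 190.1 in CbG and 261, 197 and 200.3 in CTX. CA3 replicates 1 and 2 were the highest and CbG replicates 1 and 2 the lowest of all arrays, and the 2 arrays in doubt lay between them. It was called in no comparison under either labelling, and with both doubtful arrays left out it was called in VUL against RES, at -0.70 (adjusted p = 0.00786), and in 3 other comparisons. Psmd10, also known as gankyrin, had 1059, 1075 and 947 in CA1, 739, 500.1 and 677 in CA3, 959, 899 and 760 in CbG and 909, 732 and 885 in CTX, with CA1 replicates 1 and 2 the highest and the arrays labelled CA3 among the lowest. Its difference of CA1 from CA3 was 0.64 ± 0.19 with the labels exchanged (adjusted p = 0.0362) and 0.68 ± 0.19 as labelled (adjusted p = 0.15). Psmg1, which with Psmg2 starts the alpha ring, had 1083, 775 and 1002 in CA1, 947, 743 and 1134 in CA3, 1130, 1314 and 1057 in CbG and 764, 708 and 633 in CTX, and CbG was higher than CTX by 0.95 ± 0.20 with the labels exchanged (adjusted p = 0.00285), against 0.91 ± 0.24 as labelled (adjusted p = 0.142). Psmg2 had 1043, 759.9 and 987 in CA1, 1111, 1136 and 498 in CA3, 810.4, 637 and 971 in CbG and 797, 637 and 534 in CTX, where the array labelled CA3 replicate 3 was the lowest of all 12. Psmg4 had 499, 465 and 521 in CA1, 502, 321 and 367 in CA3, 482, 488 and 467 in CbG and 587, 466.1 and 483 in CTX and the smallest range of the chaperones. Psme3ip1, matched by its symbol and in none of the groups, had 406 on CbG replicate 2 and 581 to 717 on the other 11 arrays.

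For the question the study asked, VUL against RES, 0 of 40 members were called as labelled, against 0.0% of all probe sets, and the members' median difference was 0.14 against 0.07 for all. An unadjusted p under 0.05 was reached by 7 members and by 740 of the 7535 probe sets. After the exchange 2 of 40 were called, both higher in VUL, against 18.4% of all called and 10.1% called higher: Psma2, by 0.73 ± 0.16 (adjusted p = 0.00352), and Psme4. For Psma2 the difference of CbG from CTX was 1.51, while CA1 and CA3 differed by -0.05. The methods' t-test was run on pairs by replicate number, with CA1 minus CA3 and CbG minus CTX of each number entered as separate differences. Each number thus counted more than once, and the methods do not say which regions were paired. By this test 0 members passed as labelled at an unadjusted p under 0.05 and 1.5-fold, where 94 of the 7535 probe sets passed as higher and 104 as lower. After the exchange 1 member, Psme4, passed, as did 566 probe sets as higher and 342 as lower. After Benjamini-Hochberg adjustment 0 members and 193 probe sets passed. Over all probe sets 763 of the 1388 limma calls after the exchange were higher in VUL, and the calls became 542 higher and 781 lower without centring and 554 and 774 with quantile normalization, and Psma2 and Psme4 were the members called under both.

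The pairs of regions gave different pictures. CA1 and CA3 differed in 0 of 40 members as labelled (1.29% of all), with 5 at an unadjusted p under 0.05 (902 of 7535 probe sets), and in 4 with the labels exchanged (13.4% of all): Psme4 and Psmd10 higher in CA1 (7.43% of all), Psmb10 and Psmc5 lower (6.0% of all). Of the 40 members 10 as labelled and 12 exchanged were higher in CA1 than in CA3, with medians of -0.15 and -0.13, against 3596 and 3796 of the 7535 probe sets with medians of -0.02 and 0.0041. CbG and CTX differed in 0 of 40 as labelled (0.624% of all), with 11 at an unadjusted p under 0.05 (1167 of 7535 probe sets), and in 11 with the labels exchanged, all higher in CbG, against 33.9% of all called and 20.8% called higher. These were Psma1, Psma2, Psma7, Psmb1, Psmb2, Psmb3 and Psmb4 of the core, Psmd6, Psme4, Psmd5 and Psmg1. Psma2 was the largest at 1.51 ± 0.22 (adjusted p = 0.000175) and Psma1 next at 1.16 ± 0.25 (adjusted p = 0.00251). Without CbG replicate 2, the array with the high beta-actin ratio, 7 members were called, and without CTX replicate 3 the count was 6. CbG replicate 2 also had the highest summed signal of 5 Purkinje cell markers, 37256, against 15789 on CbG replicate 1 and 2607 to 8630 on the other 10 arrays, and the part of this in the high values of Psma2 there was not tested. Without centring 6 were called and with quantile normalization 5, all higher in CbG, while the calls over all probe sets went from 1569 higher and 982 lower to 994 and 1293 and to 1128 and 1287.

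CbG against the mean of the other regions gave 0 of 40 as labelled (0.0133% of all), with 3 at an unadjusted p under 0.05 (642 of 7535 probe sets), and 2 with the labels exchanged (37.5% of all): Psma2, higher by 0.75 ± 0.18 (adjusted p = 0.00371), and Psmd1. This is a low share beside that of the array. The difference between the pairs, CbG minus CTX less CA1 minus CA3, has the same value under either labelling. Its median was 0.48 over the members and 0.81 over the core genes, against 0.18 over all probe sets. As labelled 0 of 40 were called (2.07% of all), 12 having an unadjusted p under 0.05 (1302 of 7535 probe sets), and with the labels exchanged 9, all above 0, against 24.1% of all called and 13.3% called above 0. They were Psma1, Psma2, Psma6, Psma7, Psmb1, Psmb10, Psmc2, Psmd6 and Psmg1, with differences of 0.85 for Psma6 to 1.56 for Psma2. Over all probe sets the calls went from 1001 above 0 and 812 below to 726 and 1067 without centring and to 860 and 1038 with quantile normalization. CA1 against CTX, whose value draws on neither doubtful array and was added after the values were seen, gave 2 of 40 as labelled (6.37% of all called, 4.25% higher in CA1), Psma2 and Psmd6, and 13 with the labels exchanged (33.7% of all called, 26.3% higher), in each case higher in CA1. Without centring and with the labels exchanged 5 members were called higher and 1, Psmb10, lower, and the calls over all probe sets went from 1984 higher and 557 lower to 767 and 965. Quantile normalization gave 3 members higher, against 893 probe sets higher and 891 lower. A fit on the CA1 and CTX arrays alone also called 13, against 36.9% of all. CA1 minus CTX, CbG minus CTX and the comparison of CTX with all others share the CTX arrays.

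With both doubtful arrays left out, CA3 and CbG have 2 arrays each. The members called were then 21 of 40 for any difference among the regions (60.4% of all) and 3 for VUL against RES (17.8% of all), which were Psma2, Psme4 and Psmd9. They were 4 for CA1 against CA3 (10.5% of all), namely Psme4, Psmb10, Psmd8 and Psmd9, and 6 for CbG against CTX (25.9% of all), of which Psma1, Psma2 and Psma7 belong to the alpha ring. CbG against the forebrain regions gave 7 (36.7% of all), the difference between the pairs 1 (14.8% of all), Psma2, and CA1 against CTX 13 (34.4% of all). CTX against the other regions gave 12 (23.2% of all), the genes called with the labels exchanged other than Psme4.

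The 2 doubtful arrays were less distinct in the proteasome genes than in the array as a whole. The array labelled CA3 replicate 3 was nearer to the mean of the other CbG arrays than to that of the other CA3 arrays for 19 of 40 members, against 72.8% of all probe sets tested. That labelled CbG replicate 3 was nearer to CA3 for 25 of 40, against 76.2%. In Psmd1 and Psme4 both arrays lay nearer to the other region. In Psmd6 the array labelled CA3 replicate 3 lay with the other CA3 arrays.

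Core genes varied together. Over the 12 arrays, as a description with the arrays, their scaling and the low CTX arrays shared by all pairs, the median correlation of log2 signals was 0.73 between core genes (78 pairs), 0.57 between base genes (28 pairs), 0.30 within the lid (15 pairs), 0.31 among the chaperones (21 pairs) and 0.10 among the activators and inhibitor (6 pairs). It was 0.43 over all 780 pairs of members and 0.12 over all pairs of probe sets tested.

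The wider pathway was read from lists of the same kind. Of 22 proteasome-associated genes and regulators 18 were on the array and 14 were tested. In CTX against the other regions 3 of these were called lower as labelled (Ubqln2, Bag6 and Zfand5) and 6 with the labels exchanged, with 0 higher, where 3.64% and 17.5% of all probe sets were called lower. Of 34 genes of ubiquitin and its activating and conjugating enzymes 26 were on the array and 21 were tested, and 2 (Ube2e2 and Ube2e3) and 8 were called lower, with 0 higher, beside the same shares of all. Their median differences were -0.50 and -0.41, near the -0.42 of the proteasome members. Ube2e3, a conjugating enzyme, had signals of 2736, 1784 and 2438 in CA1, 2839.6, 2205 and 2587 in CA3, 2024, 1657 and 2539 in CbG and 1366, 1328 and 1258 in CTX, with all CTX arrays below all others, and a difference of CTX of -1.06 (adjusted p = 0.0235) as labelled and -1.06 (adjusted p = 0.000757) with the labels exchanged. Ufd1, a cofactor of the Vcp unfoldase, had 1949, 1428 and 1870.2 in CA1, 2224, 2194 and 2671 in CA3, 2383, 2787 and 2294 in CbG and 1648, 1588 and 1587 in CTX, and the difference of CbG from CTX was 0.88 (adjusted p = 0.00343) with the labels exchanged and 0.80 (adjusted p = 0.148) as labelled. Others took another order. Hspa4, a co-chaperone of the Hsp70 system, had 472, 280.4 and 486 in CA1, 704, 801 and 217 in CA3, 252, 242 and 747 in CbG and 409, 356 and 266 in CTX, high in CA3 and low in CbG once the labels are exchanged, with a difference of CbG from the forebrain regions of -1.01 (adjusted p = 0.00109) with the labels exchanged and -0.23 (adjusted p = 0.863) as labelled. Ube2n, which builds ubiquitin chains of signalling, had 887, 313 and 1008 in CA1, 1313, 390.4 and 254 in CA3, 716, 269 and 898 in CbG and 1024, 1040 and 1021 in CTX, with a difference of CbG from CTX of -1.31 (adjusted p = 0.00991) with the labels exchanged and -0.71 (adjusted p = 0.595) as labelled, with replicates of CA1 and CA3 over 3-fold apart. Ube2g2, a conjugating enzyme of the endoplasmic reticulum, had 372, 300.1 and 385 in CA1, 338, 273 and 223 in CA3, 199, 105 and 406 in CbG and 162, 181 and 233 in CTX, and the difference of CbG from the forebrain regions was -0.78 (adjusted p = 0.00167) with the labels exchanged and -0.41 (adjusted p = 0.65) as labelled. Its CTX arrays were low as well. They overlapped CbG replicates 1 and 2 and lay below all CA1 arrays and CA3 replicates 1 and 2.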

How the data were processed

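The 12 Affymetrix RAE230A arrays were measured after 2 cycles of cDNA synthesis, with amplification, from RNA of captured neurons, with 3 arrays per region. Intensity values were deposited by the authors as MAS5 signals on a linear scale, each array scaled so that its mean without the lowest and highest 2% was about 500.1. Depth has no meaning for arrays, whose number limits the precision. Signals were turned into log2 values and centred on each array's median. Probe sets were kept where the signal passed the 50th percentile of the array on at least 8 of 12 arrays, which left 7535 of 15866 without controls. Region means with the replicate number as a block were fitted with limma 3.58.1 in R 4.3.3, and p-values were adjusted by Benjamini-Hochberg over all 7535. A call needed an adjusted p under 0.05 and 1.5-fold. The code was tested on simulated data.

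The study's methods take the neuron populations from each animal and use paired tests, but no source used here ties a replicate number to an animal, so that the pairing by number is inferred. The deviations of same-numbered arrays correlated by a mean of -0.061 as labelled and 0.086 with the 2 labels exchanged. The members and gene lists were chosen with earlier results of these data known. Values on every array are given for the member of largest and of smallest range in each group, for the 12 called members of largest size and for the catalytic genes, with up to 5 pathway genes. Psmc5, Psmd10 and Nfe2l1 were added after their values were seen, as were CTX against the other regions and CA1 against CTX. Alternatives were the labels exchanged, both arrays left out, quantile normalization, no centring, 50 added to the signals, no filter, no block, another probe set per gene, each array left out, and the methods' t-test.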

Additional observations from a re-analysis of the deposited data

Results flagged for a closer look

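Of 80 sets of 6 arrays (the VUL or the RES arrays for 1 gene) 5 held a value apart from the other 5 arrays, where chance gives about 1 in 20 sets. Among the VUL arrays as labelled, CbG replicate 2 was far above the rest for Psma2 (1634.7, against 808.9 to 1025.8), Psma7 (3263.7, against 1878.5 to 2624.6) and Psmc2 (7809.9, against 3912.2 to 5206.3), and far below for Psme3ip1 (406.0, against 580.8 to 716.8). For Psmc5 the array labelled CbG replicate 3, at 1922.2, stood above the others at 1169.5 to 1424.3. The 2 pairs of regions went opposite ways in every replicate number as labelled for 3 genes, with CA1 below CA3 and CbG above CTX. In replicate 3 the CA3 and CbG arrays are the 2 whose labels are in doubt. No share of all probe sets is set beside this count, so whether it exceeds that of the array cannot be told. The differences between the pairs were 0.854 for Psma6 (adjusted p = 0.205, limma), 0.866 for Psma7 (adjusted p = 0.179) and 1.204 for Psmd6 (adjusted p = 0.0775), none of which passed the correction as labelled.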

How the results depend on the processing

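Under the changes of labelling, scaling, added constant, filter, block and arrays, no named gene that was called changed direction. The split of calls over all probe sets did turn with the scaling. The other probe set of a gene was not part of this check. Psme4 was called higher in CA1 than in CA3 with the labels exchanged, but its further probe set had its lowest mean in CA1. Counts below are of the 40 members called. As labelled, with both doubtful arrays left out, the counts were 21 for any difference among regions, 3 for VUL against RES, 4 for CA1 against CA3, 6 for CbG against CTX, 7 for CbG against the forebrain regions, 1 for the difference between the pairs, 13 for CA1 against CTX and 12 for CTX against the others. With the labels exchanged they were 22, 2, 4, 11, 2, 9, 13 and 13, and a fit on CA1 and CTX arrays only gave 13 for CA1 against CTX. Quantile normalization and no centring each gave 0 for any difference, 0 for CA1 against CTX and 2 for CTX against the others. Without the filter these 3 were 0, 0 and 0, and 50 added to the signals gave 1 for CA1 against CTX. Without the replicate block the counts were 3 for any difference, 2 for CbG against CTX, 2 for the difference between the pairs and 4 for CA1 against CTX. Under the exchanged labels, quantile normalization gave 13 for any difference, 5 for CbG against CTX, 5 for the pairs, 3 for CA1 against CTX and 4 for CTX against the others, no centring gave 14, 6, 4, 6 (5 higher and 1 lower) and 4, and no filter gave 10, 5, 1, 5 and 5, with 0 for CA1 against CA3. The second-highest probe set gave 1 for VUL against RES, and the methods' t-test 1 unadjusted and 0 adjusted. Without centring and with quantile normalization, calls over all probe sets for CTX against the others went from 114 higher and 274 lower to 186 and 63 and to 184 and 90. Leaving out 1 array gave 0 to 9 for any difference as labelled and 14 to 27 exchanged, 0 to 0 and 2 to 5 for VUL against RES, 0 to 0 and 1 to 4 for CA1 against CA3, 0 to 1 and 6 to 13 for CbG against CTX, 0 to 3 and 1 to 7 for CbG against the forebrain regions, 0 to 1 and 3 to 12 for the pairs, 0 to 6 and 5 to 13 for CA1 against CTX, and 0 to 10 and 5 to 15 for CTX against the others. For CTX against the others as labelled the count was 0 without CA1 replicate 1, CA1 replicate 3 or any CTX array, 2 without CA3 replicate 1 or 2, and 10 without CA3 replicate 3. With the labels exchanged it was 5 without CTX replicate 3. The cause was not tested.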
